A study of Mus musculus with 15 samples.

Results

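The genes of oxidative phosphorylation were taken by name from spatial transcript tables of mouse embryo sections: every column beginning with mt-, Nduf, Uqcr, Atp5, Cox4, Cox5, Cox6, Cox7 or Cox8, apart from symbols containing -ps. The rule found 114 of the 30534 features. Of these, 27 are encoded by mitochondrial DNA (13 messenger RNAs, 2 ribosomal RNAs and 12 transfer RNAs) and 87 by nuclear genes. The nuclear members comprise 36 subunits of complex I, 7 assembly factors of complex I (Ndufaf genes), 8 subunits of complex III, 19 of complex IV, 15 of the ATP synthase and 2 ATP synthase factors (Atp5s and Atp5sl). Ndufa4 and Ndufa4l2 were placed with complex IV, where the Ndufa4 protein is now known to sit.

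The respiratory chain passes electrons from NADH through complexes I, III and IV to oxygen and pumps protons, and the ATP synthase uses the proton gradient to make ATP. Its subunits come from both genomes: mitochondrial DNA is transcribed as long precursors from which messenger, ribosomal and transfer RNAs are cut, while the nuclear members are separate genes whose proteins are imported. Heart muscle is rich in mitochondria and carries muscle forms of some complex IV subunits, among them Cox6a2 and Cox7a1.

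Frozen embryo sections from day 10, day 11 and day 12 of gestation, called E10, E11 and E12, were barcoded through crossing microfluidic channels, so that each crossing is a pixel, a small square that can hold several cells or part of one. Pixels were 50, 25 or 10 µm wide. There were 3 libraries of E10 at 50 µm, 1 of E10 at 25 µm, 2 of E10 at 10 µm, 2 of E11 at 25 µm, 2 of E11 at 10 µm and 1 of E12 at 50 µm. The labels give tissue, stage and pixel width and name no strain, genotype, treatment or embryo, so stage cannot be told apart from embryo, body region and batch, and p-values measure only the spread between these libraries. Tissue pixels numbered 829 to 2271 per library, with 1563489 to 11998765 counts in all and a median of 843.5 to 11332 counts per pixel. Pixels left out for a low total had mitochondrial shares of 0.720% to 4.49% and nuclear shares of 1.35% to 2.26%. They were set apart by depth alone, so shallow tissue and counts away from the section cannot be told apart in them.

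The mitochondrial-encoded genes varied far more between libraries than the nuclear-encoded genes did. At E10 and 50 µm they took 2.80%, 3.05% and 2.51% of all gene counts in replicates 1, 2 and 3, a mean of 2.79% ± 0.271 (SD, n = 3). The E10 25 µm library had 1.35%, and the E10 10 µm libraries had 2.34% and 1.72%. The E11 25 µm libraries had 0.629% and 2.78%, a 4.42-fold gap between replicates, and the E11 10 µm libraries had 0.555% and 1.36%. The E12 library had 2.13%. The lowest values are thus both at E11, but the other E11 25 µm library lies among the E10 50 µm libraries.

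The nuclear-encoded share stayed within a narrower band. It was 2.11%, 1.47% and 1.84% at E10 50 µm, 1.82% at E10 25 µm, and 1.91% and 2.36% at E10 10 µm. At E11 it was 2.66% and 2.16% at 25 µm, and 2.13% and 2.53% at 10 µm. The E12 library had 1.96%. Over the 11 libraries the largest mitochondrial share was 5.50 times the smallest, against 1.81 times for the nuclear share. The 2 sums did not move together: the library with the largest nuclear share, E11 25 µm replicate 1, had the second lowest mitochondrial share.

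**Figure D1:**
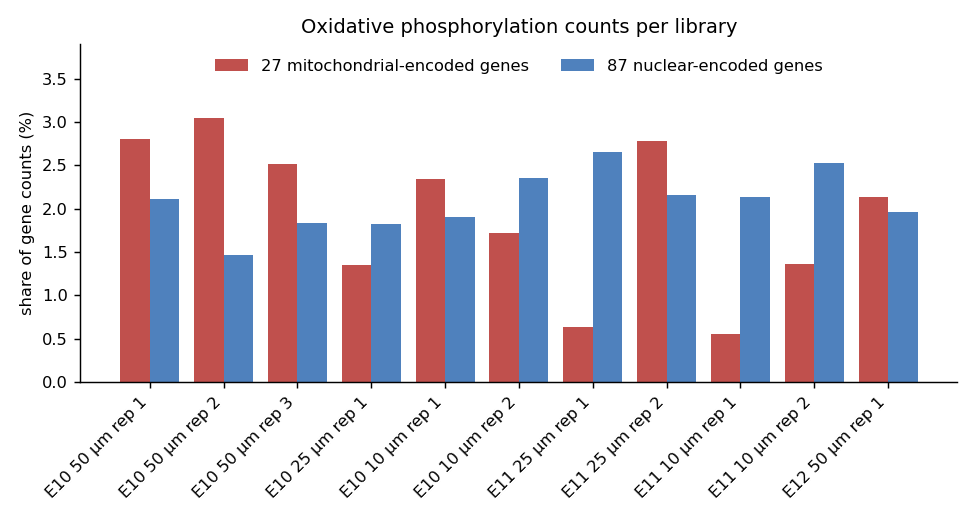
Share of all gene counts in tissue pixels (%, vertical axis) taken by mitochondrial-encoded (red) and nuclear-encoded (blue) members in each of the 11 libraries; bars are single libraries and carry no error. The red bars run from 0.555% to 3.05%, with a 4.42-fold gap between the E11 25 µm replicates, while the blue bars stay between 1.47% and 2.66%.

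The log2 ratio of mitochondrial to nuclear counts was 0.64 ± 0.36 (SD, n = 3) at E10 50 µm, −0.43 at E10 25 µm and −0.08 ± 0.53 (SD, n = 2) at E10 10 µm. It was −0.86 ± 1.73 (SD, n = 2) at E11 25 µm, −1.42 ± 0.74 (SD, n = 2) at E11 10 µm and 0.12 at E12. Averaged over libraries it was 0.22 ± 0.58 (SD, n = 6) at E10 and −1.14 ± 1.13 (SD, n = 4) at E11, a difference of −1.36 beside a pooled SD of 0.83. The E10 mean includes 3 libraries at 50 µm and the E11 mean none, so stage and pixel width are mixed in this difference. At equal width the E11 and E10 means were −0.86 and −0.43 at 25 µm, and −1.42 and −0.08 at 10 µm. The E11 25 µm replicate 2 library, at 0.37, lay inside the E10 range of −0.45 to 1.06, so the stages overlapped. Without it the difference was −1.86, and without E11 25 µm replicate 1 it was −1.04.

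Messenger RNAs made up nearly all mitochondrial-encoded counts. Summed over the libraries they held 1668075 counts, against 572 for the ribosomal RNAs and 1075 for the transfer RNAs. mt-Rnr2, the large ribosomal RNA, which is among the most abundant RNAs of a mitochondrion, had a mean of only 7.99 CPM (counts per 1000000 gene counts; range 1.09 to 35.8) and mt-Rnr1 had 0.720 CPM. The messenger RNA sum is therefore what the mitochondrial share measures here.

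Among the messenger RNAs, levels per length differed widely. mt-Co3, a core subunit of complex IV, had the highest mean level per kilobase of exon, 4459 CPM, followed by mt-Co1, the catalytic subunit of that complex, with 2962. mt-Nd6, the only protein gene on the opposite strand of mitochondrial DNA (chrM:13552-14070 in GRCm38, minus strand), had the lowest, 24.4. Among nuclear members the highest level per kilobase was 1285 CPM for Cox6a1, the broadly expressed form of complex IV subunit 6A, followed by 764 for Cox8a, another small complex IV subunit. mt-Atp8 overlaps mt-Atp6, and mt-Nd4l overlaps mt-Nd4, so reads in the overlaps cannot be assigned to 1 gene.

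mt-Co1 shows the spread between libraries. It had 6704, 7137 and 6095 CPM at E10 50 µm, 3449 at E10 25 µm, and 5481 and 3972 at E10 10 µm. It had 1564 and 6720 CPM at E11 25 µm, 1445 and 3289 at E11 10 µm, and 4483 at E12. The lowest values are in E11 25 µm replicate 1 and E11 10 µm replicate 1, as for the whole sum. Across the 13 messenger RNAs the highest library was 4.56 (mt-Co2) to 30.01 (mt-Atp8) times the lowest, with a median of 7.75 times. For the 82 nuclear members with a mean of at least 10 CPM the median was 2.40 times.

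The 3 nuclear members with the highest mean CPM were taken from each complex. For complex I these were Ndufa2, Ndufa12 and Ndufa10, accessory subunits, with 384 ± 103, 374 ± 106 and 370 ± 80.7 CPM (SD over the 11 libraries). For complex III they were Uqcrq (406 ± 174), Uqcr11 (388 ± 158) and Uqcrh (369 ± 54.1), all small subunits. For complex IV they were Cox6a1 (902 ± 271), Cox4i1 (771 ± 260) and Cox7a2 (603 ± 190), and for the ATP synthase Atp5b, the catalytic beta subunit (1060 ± 212), Atp5o of the stalk (771 ± 142) and Atp5j2 of the membrane part (706 ± 267). These are levels in CPM, not per length, and serve to name members, not to rank them.

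Base composition moved with the difference between the E11 25 µm replicates. The 13 mitochondrial messenger RNAs have 31.9% to 41.1% GC, and the 82 nuclear members with a mean of at least 10 CPM have 41.3% to 60.8%. On the log2(CPM + 1) scale, replicate 1 minus replicate 2 had a median of −2.27 over the mitochondrial messenger RNAs. It was −0.72 over the 8 nuclear members under 45% GC and 0.66 over the 44 with at least 50% GC. Pearson's r between GC and this difference was 0.72 over the 82 nuclear members and 0.67 over 9940 other genes of the same minimum level. These correlations run across genes of the same pair of libraries, and genes are not independent replicates. Atp5l, an ATP synthase subunit with 44.7% GC, had 105 CPM in replicate 1 and 234 in replicate 2, while Atp5d, the delta subunit with 59.4% GC, had 1144 and 592.

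The E11 10 µm pair gave r = 0.11 over the same nuclear members, with a median difference of −1.40 (replicate 1 minus replicate 2) over the mitochondrial messenger RNAs. Against the mean of all libraries, the nuclear members rose with GC in E11 25 µm replicate 1 (r = 0.70), E11 10 µm replicate 1 (0.33) and E11 10 µm replicate 2 (0.24), and r was below 0 in the other 8 libraries (−0.49 to −0.10). The 3 libraries with r above 0 are all at E11. The part of base composition in any stage difference was not tested.

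**Figure D2:**
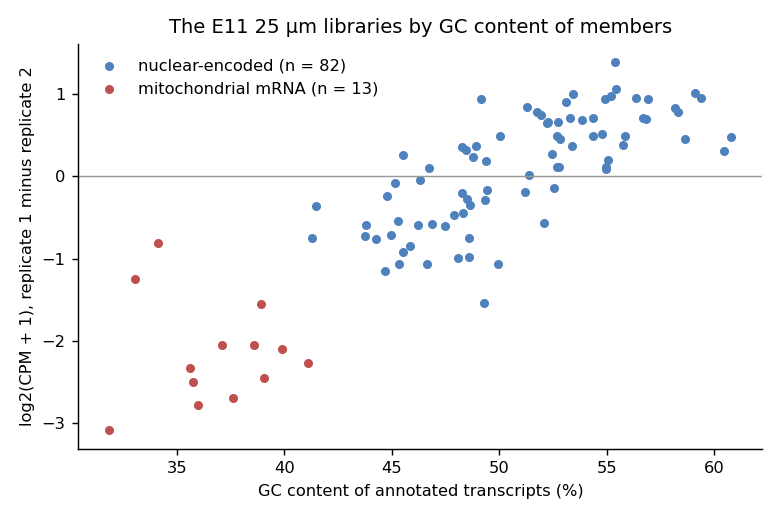
Difference in log2(CPM + 1) between the E11 25 µm libraries (replicate 1 minus replicate 2, vertical axis) against the GC content of each member's annotated transcripts (%, horizontal axis); points are genes, 82 nuclear (blue) and 13 mitochondrial messenger RNAs (red). AT-rich members lie below 0 and GC-rich members mostly above it, with r = 0.72 over the nuclear members.

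Part of the mitochondrial signal was counted under other names. A stretch of nuclear chromosome 1 (chr1:24611535-24616197 in GRCm38, minus strand) holds copies of mitochondrial DNA annotated as 6 pseudogenes that are not members of the set. Gm28437 matches mt-Co3 over 783 bases with 783 identical, Gm28661 matches mt-Co2 over 681 of 681, and Gm10925 matches mt-Atp6 over 678 of 678. Gm28438 matches mt-Nd3 with 344 of 345 bases identical, Gm29216 matches part of mt-Co1 and Gm28439 part of mt-Nd4. The opening bases of the mt-Nd3 pair are printed to show how little separates them, with the differing base in capitals.
Gm28438: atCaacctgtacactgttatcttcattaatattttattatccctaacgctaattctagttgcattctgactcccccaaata
mt-Nd3: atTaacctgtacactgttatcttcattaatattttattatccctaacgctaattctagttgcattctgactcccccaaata
The mt-Nd3 gene is at chrM:9459-9806 and Gm28438 at chr1:24612775-24613119, and the remaining bases of these runs are the same.

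In all 11 libraries the counts were nearly equal in the 3 pairs that match over nearly the whole mitochondrial gene without a differing base. Gm28439 has no differing base either, but matches only 876 of the 1378 bases of mt-Nd4. It held 4.06% to 15.6% of the counts of that pair. Gm28437 held 49.7% to 50.8% of the counts of its pair with mt-Co3, for example 79703 against 79458 in E10 50 µm replicate 1. Gm28661 held 49.9% to 51.9% of its pair with mt-Co2, and Gm10925 49.8% to 51.9% of its pair with mt-Atp6. Gm28438 held 49.1% to 55.1% of its pair with mt-Nd3, for example 1468 against 1211 in E10 50 µm replicate 2. Within pixels the Gm28437 and mt-Co3 counts were closer than an independent even assignment of each count would leave them: the squared difference divided by the sum had a mean of 0.341 to 0.772 per library, where even assignment gives about 1 and identical counts give 0. For Gm28438 and mt-Nd3 this mean was 0.585 to 1.00, which reaches the value of even assignment. The 6 pseudogenes took 0.323% to 1.73% of all gene counts. Whether reads were shared out or counted under both names is not given in the sources used here. mt-Co2, mt-Co3, mt-Atp6 and mt-Nd3 levels are uncertain for this reason, and mt-Co1 and mt-Nd4 in part. Adding the copies raised the E10 50 µm mean log2 ratio from 0.64 to 1.26, and left the E11 minus E10 difference, over mixed pixel widths, at −1.35.

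Between stages, 6 members passed edgeR's quasi-likelihood test in the average of the 10 µm and 25 µm changes from E10 to E11. The background was 656 of 18233 genes, 3.60%, and the members tested numbered 110. Cox8a (log2 change 1.13, SE 0.26, adjusted p = 0.0360), Atp5d (1.12, SE 0.28, adjusted p = 0.0485), Cox6a1 (1.08, SE 0.26, adjusted p = 0.0402) and Cox7a2 (1.01, SE 0.24, adjusted p = 0.0368) rose. The transfer RNA genes mt-Tt (−3.40, SE 0.80, adjusted p = 0.0384) and mt-Tw (−3.26, SE 0.74, adjusted p = 0.0349) fell, on 132 and 88 counts in all over the 11 libraries. Without E11 10 µm replicate 2 the mt-Tw change was −5.50. The median change was 0.29 over the 87 nuclear members, −0.61 over the 23 mitochondrial members tested and 0.05 over all genes.

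Cox7a2, the broadly expressed form of complex IV subunit 7A, had 298 CPM at E10 25 µm and 584 and 608 at E10 10 µm, against 762 and 785 at E11 25 µm and 716 and 917 at E11 10 µm. The E11 values lay above all E10 values, which reached no higher than 608. Cox8a had 250 CPM at E10 25 µm, 436 and 387 at E10 10 µm, 748 and 545 at E11 25 µm and 578 and 737 at E11 10 µm, again without overlap. Atp5d, Cox6a1 and Cox8a have 59.4%, 60.8% and 58.6% GC and Cox7a2 has 46.3%. The E10 side of the 25 µm change is the E10 25 µm library alone. That library had the lowest Cox7a2 and Cox8a levels and the lowest median counts per pixel, 843.5, of the 11 libraries. It could not be left out in the runs that follow. The count of called members fell to 0 without E10 10 µm replicate 1 or without E11 25 µm replicate 1, to 1 without E10 50 µm replicate 3, E10 10 µm replicate 2 or E11 10 µm replicate 2, and rose to 13 without E11 25 µm replicate 2.

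No member passed edgeR's test in the other comparisons of whole libraries. From E10 to E11 at 10 µm alone, 608 of 18233 genes passed (3.33%) and no member, with 9 members at an unadjusted p under 0.05 and 3 called by DESeq2. At 25 µm alone 0.455% of genes passed and no member, with 18 members at an unadjusted p under 0.05 and 7 called by DESeq2. For 10 µm against 50 µm pixels at E10, 0.110% of genes passed and no member, with 2 at an unadjusted p under 0.05, and for 10 µm against 25 µm at E11, 2.07% of genes and no member, with 3. E12 against E10 at 50 µm had 2.14% of genes and no member, with 3 at an unadjusted p under 0.05. The difference between the stage changes at 10 µm and 25 µm had 0.137% of genes and no member, with 8. DESeq2 called no member in these last 4 comparisons. The shares of all genes given here are for edgeR's adjusted p. The member counts at an unadjusted p and by DESeq2 have no such share beside them and are not read as high or low.

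Within a library, tissue classes can be compared on the same section. A pixel was classed as heart or liver where marker genes of heart muscle or liver took at least 50 of 10000 counts, as neural where progenitor and neuron markers took at least 30, and otherwise as other. Classes with at least 20 pixels in a library were compared with the other pixels of that library, with library as a block. The p-values of these comparisons therefore measure the spread of the class difference between libraries, not that of the levels. In bulk sums over pixels, fewer cells of a type and less RNA per cell cannot be told apart.

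Heart pixels had higher levels of nearly the whole set. They numbered 1073 in 8 libraries (36 to 290 each), and the heart muscle list took 74.2 to 354 of 10000 counts there, against 3.24 to 11.4 in the other pixels. The nuclear share was higher in heart pixels in all 8 libraries, by 1.504-fold ± 0.221 (SD, n = 8). The mitochondrial share was also higher in all 8, by 1.51-fold ± 0.285. The log2 ratio of mitochondrial to nuclear counts differed by only −0.01 ± 0.14 and was higher in 5 of the 8 libraries, so both genomes' transcripts rose by like amounts on average.

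The nuclear share in heart and other pixels was 1.95% and 1.43% in E10 50 µm replicate 2, 2.16% and 1.60% in replicate 3, 2.88% and 1.79% at E10 25 µm, and 2.18% and 1.86% in E10 10 µm replicate 1. It was 3.99% and 2.49% in E11 25 µm replicate 1, 3.74% and 1.99% in replicate 2, 3.82% and 2.33% in E11 10 µm replicate 2, and 2.74% and 1.92% at E12. The mitochondrial share was 1.06% and 0.590% in E11 25 µm replicate 1 and 4.88% and 2.58% in replicate 2. The heart excess was thus 1.79-fold and 1.89-fold in those libraries, although their mitochondrial shares differ several-fold.

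**Figure D3:**
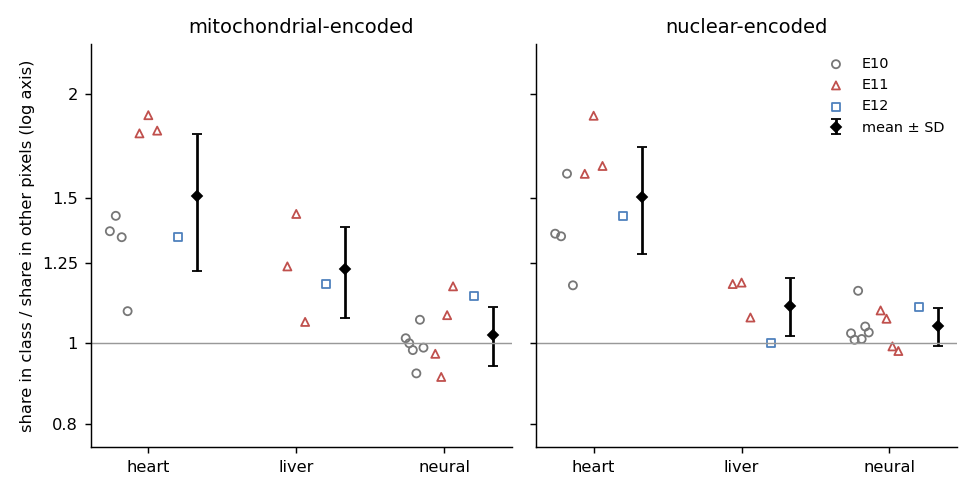
Ratio of the share of counts in a pixel class to the share in other pixels of the same library (vertical log axis) for mitochondrial-encoded (left) and nuclear-encoded (right) members; symbols are libraries by stage, and diamonds with bars are the mean ± SD over libraries. All 8 heart values lie above 1 in both panels, from 1.09 to 1.89 on the left and 1.18 to 1.88 on the right, while neural values straddle 1.

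Of the 114 members, 96 had enough counts to be tested in heart, and 82 of these were called higher and none lower, where 13.4% of all 10065 genes tested were called in either direction. The members called were 13 of 14 mitochondrial and 69 of 82 nuclear. By complex they were 32 of 36 complex I subunits, 8 of 8 complex III, 14 of 15 complex IV and 14 of 15 ATP synthase subunits, and 1 of 7 complex I assembly factors. That last count is near the share of all genes called. The 7 assembly factors had log2 changes of 0.20 to 0.71, at low mean levels of 15.3 to 46.2 CPM over whole libraries. The median log2 change was 0.62 over nuclear members, 0.68 over mitochondrial members and −0.06 over all genes. Of the 82 members called, 50 were higher in every one of the 8 libraries. The share of all called genes with the same direction in every library is not given here, so this count is not read as high or low. The members tested and not called were Atp5g2, Atp5sl, Ndufa1, Ndufa6, Ndufa7, Ndufb3, Cox6b2, mt-Nd6 and 6 of the assembly factors.

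The largest changes were in the muscle isoforms of complex IV. Cox6a2 (chr7:128205435-128206387, GRCm38, minus strand) had 89.9 and 111 CPM in heart pixels of E10 50 µm replicates 2 and 3, 29.5 at E10 25 µm, 63.9 at E10 10 µm, 209 and 195 at E11 25 µm, 268 at E11 10 µm and 267 at E12. Other pixels of these libraries had 0.868 to 10.9 CPM, so the classes did not overlap. The log2 change was 4.78 (SE 0.49, adjusted p = 0.00043), 27.5-fold. Cox6a2 had too few counts to be tested in the liver and neural comparisons. It thus reached the heart test through its heart counts, and the fold rests on low counts in other pixels. The gene overlaps Itgad on the other strand, and use of strand in the counting is not given in the sources used here.

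Cox7a1 (chr7:30184144-30186078, plus strand) had 38.2 and 85.6 CPM in heart pixels of E10 50 µm replicates 2 and 3, 118 at E10 25 µm and 34.9 at E10 10 µm. It had 225 and 211 at E11 25 µm, 173 at E11 10 µm and 168 at E12, against 2.89 to 10.5 in other pixels. Again all heart values lay above all others, and the log2 change was 4.37 (SE 0.42, adjusted p = 8.5e-05), 20.7-fold. The broadly expressed partners rose much less: Cox6a1 by 0.67 (SE 0.10, adjusted p = 1.3e-05) and Cox7a2 by 0.70 (SE 0.11, adjusted p = 1.1e-05). Their levels stayed higher, with medians of 1147 and 776 CPM in heart pixels against 153 for Cox6a2 and 143 for Cox7a1 (CPM, not per length).

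The other isoforms were compared where they had enough counts. Cox4i1 rose by 0.53 (SE 0.11, adjusted p = 0.00077) and its partner Cox4i2 had too few counts to be tested, as did Cox7b2, Cox8b and Ndufa4l2, while Cox8c was not found among the columns. Cox5a and Cox5b rose by 0.75 and 0.87, Cox6b1 by 0.66, Cox7a2l by 0.61, Cox7b by 0.84, Cox8a by 0.79 and Ndufa4 by 0.55 (log2). Cox6b2, the testis form of subunit 6B, had −0.08 (SE 0.32, adjusted p = 0.94). The genes for subunit c of the ATP synthase rotor encode the same mature protein: Atp5g1 rose by 1.15 (SE 0.11, adjusted p = 3.6e-09) and Atp5g3 by 0.90 (SE 0.12, adjusted p = 5.8e-07), while Atp5g2 had 0.25 (SE 0.12, adjusted p = 0.18).

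Atp5g1 had 582 and 761 CPM in heart pixels of E10 50 µm replicates 2 and 3, 945 at E10 25 µm, 567 at E10 10 µm, 1003 and 696 at E11 25 µm, 1190 at E11 10 µm and 470 at E12. Other pixels had 231 to 548 CPM, so the ranges overlapped across libraries although heart was higher in 8 of 8. Ndufs1, the largest iron-sulphur subunit of complex I, rose by 0.96 (SE 0.16, adjusted p = 3.9e-05), from a median of 67.8 to 95.3 CPM. mt-Rnr2 was called at 1.74 (SE 0.37, adjusted p = 0.0011) on 73 heart counts, but it was higher in 6 of 8 libraries and had 354 CPM in the E10 25 µm library against 0 to 37.4 in the others.

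The mitochondrial messenger RNAs changed by 0.53 to 0.81 on the log2 scale in the 12 of 13 that were called, with mt-Nd3 lowest (0.53, SE 0.14, adjusted p = 0.0099) and mt-Nd5 highest (0.81, SE 0.11, adjusted p = 1.5e-06). mt-Co1 had a median of 6626 CPM in heart pixels and 4738 in other pixels and was higher in 8 of 8 libraries (0.72, SE 0.13, adjusted p = 0.00099). mt-Nd6 had 0.51 (SE 0.31, adjusted p = 0.33). The 6 nuclear copies were called higher too, 6 of 6, but their counts are not independent of those of the mitochondrial genes.

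**Figure D4:**
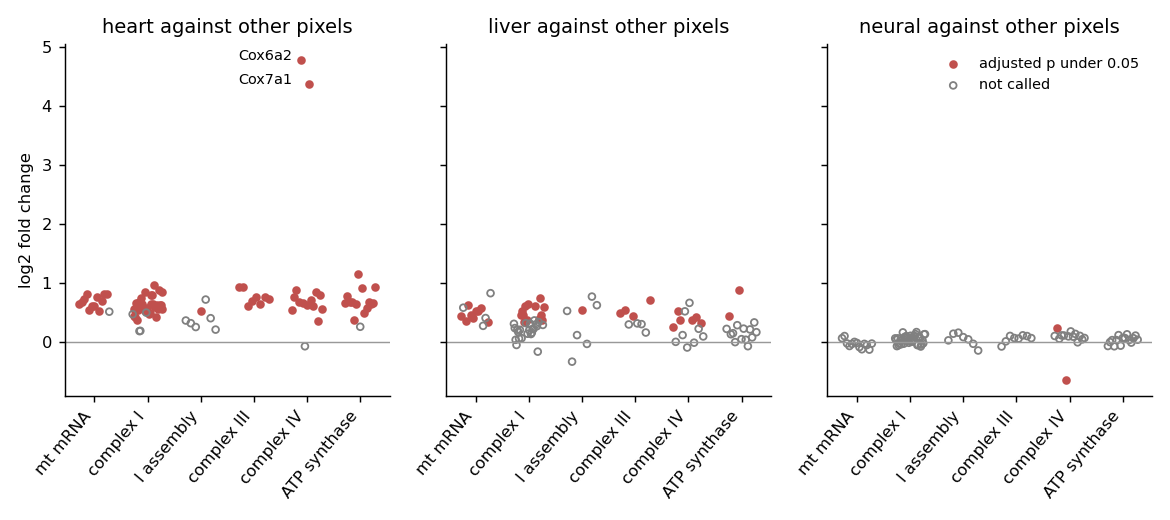
Log2 fold change (vertical axis) of each tested member in heart, liver and neural pixels against other pixels of the same libraries, by complex (horizontal axis); points are genes, red where edgeR's adjusted p is under 0.05, and mt-Rnr2 and Atp5sl are not drawn. Most heart points are red, with Cox6a2 (4.78) and Cox7a1 (4.37) far above the rest, fewer liver points are red, and 2 neural points are red.

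Genes that feed the chain were also called higher in heart. Of 18 tested genes of complex II, electron carriers and mitochondrial transporters, 15 rose and none fell: cytochrome c1 (Cyc1) by 1.01, cytochrome c (Cycs) by 0.76, the ADP/ATP carrier Slc25a4 by 1.04 and the complex II subunit Sdhb by 0.76 (log2). Of 13 citric acid cycle genes, 10 rose and none fell, among them Idh3a (1.74), Ogdh (0.92) and Cs (0.64). Of 17 tested genes for copying and expressing mitochondrial DNA and its regulators, 3 rose: Ppargc1a, a coactivator of mitochondrial genes, by 2.67, Esrra, a nuclear receptor that works with it, by 1.14, and the elongation factor Gfm1 by 0.80. Of 23 tested assembly factors outside the set, 2 rose, Cox17 (0.79) and Cox20 (0.64). Beside the 13.4% of all genes called, the counts of these last 2 lists are near or under the background. These lists had medians of 0.60, 0.73, 0.03 and 0.35, beside −0.06 over all genes.

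Heart pixels were shallower than other pixels in 7 of 8 libraries, with medians of 531.5 to 7581 against 772 to 7643 counts. With both classes limited to a like range of depth, 79 of 90 tested members were called higher and none lower. The share of all genes called in that run is not given here. Globin genes took 1.26% to 21.8% of counts in heart pixels and 1.47% to 6.71% in other pixels. Without globins in the total, the nuclear excess was 1.54-fold ± 0.249 and the mitochondrial 1.54-fold ± 0.299. The skeletal muscle list, which holds the cardiac actin Actc1, took 21.3 to 68.7 of 10000 counts in heart and 0.668 to 10.3 in other pixels, and its part in the result was not tested. Without library as a block the count of called members fell to 7.

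The heart change differed between E11 and E10 for some members, in an interaction test chosen after the class results were seen (7 libraries). It called 19 of 96 members, all with a higher log2 change at E11, where 2.11% of all 10081 genes were called. They were 7 mitochondrial and 12 nuclear members, led by Cox6a2 (difference in log2 change 2.19, SE 0.57, adjusted p = 0.047), Cox7a1 (1.86, SE 0.44, adjusted p = 0.0047), Ndufa1 (1.16), Ndufc2 (1.03) and Ndufs7 (0.95). Without E10 10 µm replicate 1 the difference was 0.95 for Cox6a2 and 1.00 for Cox7a1, and neither was called. Cox6a2 was also not called without E10 25 µm (2.12), nor Cox7a1 without E11 25 µm replicate 2 (1.54). Ndufa1 was not called in heart over all 8 libraries (0.46, SE 0.22, adjusted p = 0.20). The nuclear excess was 1.37-fold ± 0.176 (SD, n = 4) at E10 and 1.71-fold ± 0.153 (SD, n = 3) at E11, and the mitochondrial excess 1.31-fold ± 0.147 and 1.83-fold ± 0.0502. The E10 values include 2 libraries at 50 µm and the E11 values none, so stage and pixel width are mixed in these means. At 25 µm the nuclear excess was 1.60-fold at E10 and 1.60-fold and 1.88-fold at E11, and the mitochondrial excess 1.34-fold against 1.79-fold and 1.89-fold. At 10 µm, with 1 library each, the nuclear excess was 1.18-fold and 1.64-fold and the mitochondrial 1.09-fold and 1.81-fold. The heart muscle list also varied, with overlap between the stages: it took 106, 105, 274 and 74.2 of 10000 counts in E10 heart pixels and 354, 227 and 335 at E11. The part of this in the difference was not tested. The count fell to 4 without E11 25 µm replicate 2 and to 5 without E10 10 µm replicate 1, and was 12 without E10 50 µm replicate 2 or without E11 25 µm replicate 1.

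Liver pixels showed a smaller change in fewer members. They numbered 680 in 4 libraries (E11 25 µm replicates 1 and 2, E11 10 µm replicate 2 and E12), and liver markers took 109 to 163 of 10000 counts against 3.41 to 12.5 in other pixels. Of 94 members tested, 35 were called higher and none lower, where 21.5% of all 11205 genes were called in either direction. They were 9 of 13 mitochondrial and 26 of 81 nuclear members: 13 of 36 complex I, 4 of 8 complex III, 6 of 14 complex IV and 2 of 15 ATP synthase subunits. The median log2 change was 0.28 over nuclear members, 0.45 over mitochondrial members and 0.00 over all genes.

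The nuclear share in liver and other pixels was 2.93% and 2.49%, 2.35% and 1.99%, 2.51% and 2.33%, and 1.93% and 1.92%, in the order just given. The mitochondrial share was 0.732% and 0.590%, 3.70% and 2.58%, 1.31% and 1.24%, and 2.38% and 2.02%. The excess was 1.11-fold ± 0.0881 (SD, n = 4) for nuclear and 1.23-fold ± 0.155 for mitochondrial members, higher in 4 of 4 libraries for both, and the log2 ratio was 0.14 ± 0.14 higher. Liver pixels were deeper than other pixels in all 4 libraries. At like depth 27 members were called, and the share of all genes called in that run is not given here. Without E11 25 µm replicate 2 the count fell to 9, and without E11 25 µm replicate 1 to 18.

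Among members called in liver the largest change was that of Atp5g1, at 0.87 (SE 0.13, adjusted p = 0.0006). It had 960 and 494 CPM in liver pixels of E11 25 µm replicates 1 and 2, 733 at E11 10 µm and 377 at E12, against 448, 231, 548 and 301 in other pixels, and was higher in each library. Next came Ndufs7, an iron-sulphur subunit of complex I, at 0.74 (SE 0.12, adjusted p = 0.0008), Uqcrq of complex III at 0.70 (SE 0.10, adjusted p = 0.0002), Ndufb4 of complex I at 0.63 (SE 0.13, adjusted p = 0.0028) and mt-Co2 at 0.62 (SE 0.09, adjusted p = 0.0002). Cox7a1 had 0.66 (SE 0.54, adjusted p = 0.43) on 26 liver counts, and Cox6a2 had too few counts to be tested. The regulators called in liver were Lrpprc (0.65), Fastkd2 (1.23) and Top1mt (1.31), which act on mitochondrial RNA or DNA, 3 of 19 tested, which is not above the 21.5% of all genes called, and Ppargc1a was not called (0.75, adjusted p = 0.27). Of the citric acid cycle list 4 of 13 rose, and of the carriers and complex II list 7 of 18.

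Of the 35 members that rose in liver, 34 also rose in heart, which is 97.1% of the liver list and 41.5% of the heart list. In heart 82 of the 96 members tested rose, so most of any list of members would overlap. Both comparisons also share the other pixels of 4 libraries, and the overlap over all genes is not given here. Heart was therefore set directly against liver within those 4 libraries, a test added after the class results were seen. It called 70 of 91 members higher in heart and none lower, where 25.0% of all 6809 genes were called. They were 10 of 12 mitochondrial and 60 of 79 nuclear members, including 14 of 15 ATP synthase subunits. Cox6a2 (5.88, SE 0.31, adjusted p = 7.6e-17) and Cox7a1 (4.55, SE 0.29, adjusted p = 1.0e-14) led, followed by Atp5o (1.12), Cox6c (1.04) and Cox5a (1.03). Cox6a2 had 195 to 268 CPM in heart and 1.62 to 9.73 in liver pixels, on 283 and 12 counts. Cox7a1 had 254 heart and 26 liver counts, so both folds rest on few liver counts. Uqcrq (0.30, SE 0.11, adjusted p = 0.051) and Ndufb4 (0.28, SE 0.16, adjusted p = 0.19) were not called. Heart pixels were shallower than liver pixels in each of these libraries, with medians of 889 to 3175 against 2091 to 6185.5 counts. No run at like depth is given for this comparison.

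**Figure D5:**
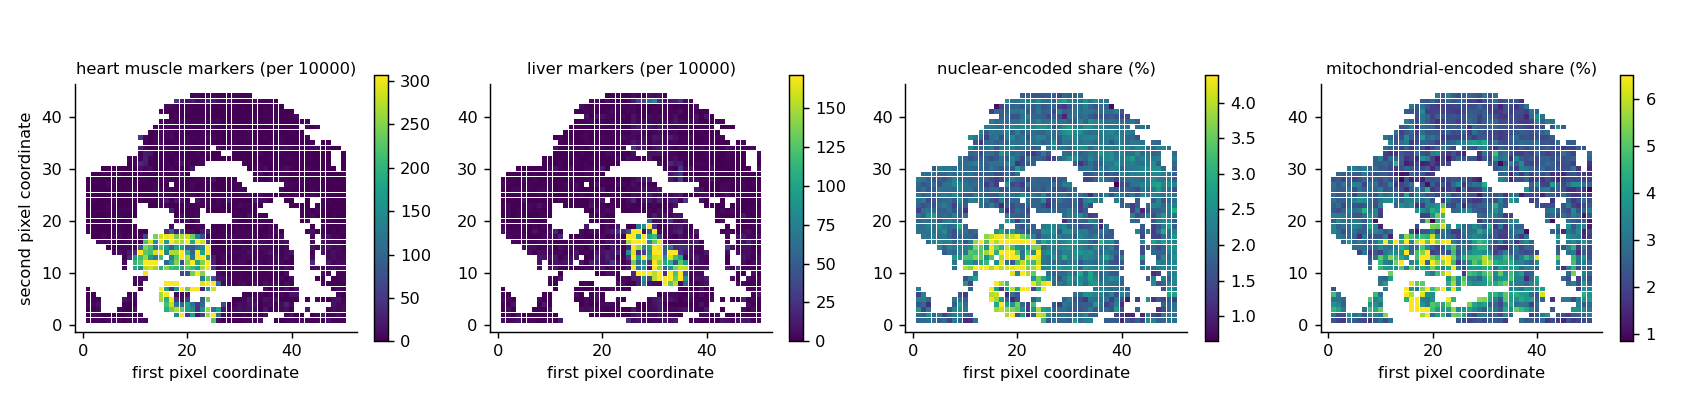
Tissue pixels of E11 25 µm replicate 2 at their grid coordinates (axes, in pixels), coloured by heart muscle markers and liver markers (counts per 10000) and by the nuclear-encoded and mitochondrial-encoded shares (%). Colours stop at the 98th percentile, and blank squares hold no pixel counted as tissue. The block of heart pixels is also the block of high nuclear share, 3.74% in heart against 1.99% in other pixels, and liver pixels lie closer to the rest in that share, at 2.35%. The mitochondrial share was 4.88% in heart, 3.70% in liver and 2.58% in other pixels.

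Neural pixels differed little from other pixels. They numbered 3502 in all 11 libraries, and the neuron list took 16.5 to 74.98 of 10000 counts in them against 2.74 to 12.3 in other pixels. The progenitor list took 6.07 to 26.1 in neural and 1.22 to 11.4 in other pixels, ranges that overlapped across libraries. The nuclear share was 1.05-fold ± 0.0543 (SD, n = 11) that of other pixels, higher in 9 of 11, and the mitochondrial share 1.02-fold ± 0.0842, higher in 6 of 11. Of 94 members tested 2 were called, where 22.0% of all 11745 genes were called. Cox5a, a complex IV subunit, was higher by 0.23 (SE 0.08, adjusted p = 0.044) and in 9 of 11 libraries, with medians of 106 and 91.8 CPM. Cox6b2 was lower by 0.65 (log2 change −0.65, SE 0.19, adjusted p = 0.0097), with medians of 7.39 and 13.9 CPM, and lower in 9 of 11. The median log2 change was 0.05 over nuclear members and −0.04 over mitochondrial members. With the marker thresholds doubled 8 members were called, and 9 without E11 10 µm replicate 2, which has 30 neural pixels. Without 1 of 7 other libraries in turn (E10 50 µm replicates 1 and 2, E10 25 µm, E10 10 µm replicate 1, both E11 25 µm replicates and E12), 1 member was called.

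Across single pixels of a library the shares of the 2 genomes were weakly related. Spearman's rho between them ran from −0.09 to 0.28 over the 11 libraries, with 829 to 2271 pixels each that share a library and its depth. Pixel depth was related to the mitochondrial share with rho of −0.39 to 0.00 and to the nuclear share with rho of 0.05 to 0.29. These values are given as a description.

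Promoters were examined because the nuclear members moved together in heart. RefSeq sequences (GRCm38.p6), 250 bases before to 50 after the start, matched 73 of the 87 nuclear members. Motifs known from respiratory genes were searched on both strands. The NRF1 core GCGCATGCG was in 10 of 73 member promoters (13.7%), against 2.41% of 17492 promoters of protein-coding genes. The ETS motif CCGGAAG, bound by GABP, was in 14 (19.2%) against 11.9%, the YY1 motif AAGATGGCG in 7 (9.59%) against 1.94%, and the ERR motif AAGGTCA, bound by Esrra, in 7 (9.59%) against 4.08%. Motif matches are a description of letters and were not tested.

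The 250 bases before the start are printed for the broadly expressed and muscle forms of subunit 7A, which differ in their heart change, and for Cox6a1, with motif matches in capitals.
Cox6a1: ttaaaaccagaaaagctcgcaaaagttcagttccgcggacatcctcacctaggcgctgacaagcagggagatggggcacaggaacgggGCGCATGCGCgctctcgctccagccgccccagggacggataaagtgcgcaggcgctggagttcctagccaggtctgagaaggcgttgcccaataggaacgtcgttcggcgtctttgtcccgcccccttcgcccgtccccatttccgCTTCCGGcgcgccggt
Cox7a2: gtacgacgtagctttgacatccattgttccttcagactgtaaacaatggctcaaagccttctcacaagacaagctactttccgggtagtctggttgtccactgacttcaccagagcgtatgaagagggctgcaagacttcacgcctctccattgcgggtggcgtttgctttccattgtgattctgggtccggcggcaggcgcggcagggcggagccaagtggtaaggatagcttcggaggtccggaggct
Cox7a1: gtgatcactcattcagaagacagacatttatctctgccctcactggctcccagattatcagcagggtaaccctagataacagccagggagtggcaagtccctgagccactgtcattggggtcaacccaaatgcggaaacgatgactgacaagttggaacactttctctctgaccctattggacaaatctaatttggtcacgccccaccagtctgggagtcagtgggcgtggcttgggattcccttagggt
They are at chr5:115348959-115349208 (minus strand), chr9:79759854-79760103 (minus strand) and chr7:30183921-30184170 (plus strand). The Cox6a1 stretch holds the NRF1 core, in overlapping matches on both strands, and the ETS motif on the opposite strand, and neither Cox7a2 nor Cox7a1 holds any of the 4 motifs in these letters. Cox6a1 and Cox7a2 had like heart changes (0.67 and 0.70).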

How the data were processed

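Transcript tables of 11 libraries were used; the antibody libraries were not. Per the labels' protocols, libraries were made from frozen sections with a Nextera XT kit. The authors deposited whole-number counts per gene symbol and pixel, not normalized. CASAVA 1.8.2 and a build named GRCh38, a human build, are listed per the submitters' processing notes; the aligner, annotation, use of strand and collapsing of molecules are not given in the sources used here. Of 16 Ensembl ID columns, 15 were matched to symbols. Positions are from GENCODE M21 (GRCm38).

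A pixel counted as tissue if its total reached 0.1 of the library's 95th percentile. Counts were summed per library, or per library and pixel class, and tested with edgeR 4.0.16 (quasi-likelihood, TMM, default filter, robust fit; R 4.3.3), with Benjamini-Hochberg adjustment over all genes tested and a threshold of 0.05. Tests are two-sided. DESeq2 1.42.0, other normalization, filters, pixel limits, marker thresholds and leaving out each library were alternatives; where that leaves a group with 1 library, it is assumed to vary like the others. Chi-square over degrees of freedom between replicates was 24.6 to 70.0, beyond sampling noise in each pair. The test scripts were tested on simulated data. GC content used log2(CPM + 1) with a pseudocount of 1. Genes were named by rule: mitochondrial protein and ribosomal RNA genes, the 3 highest nuclear members per complex by mean CPM, isoform pairs, and up to 5 called members per test and direction; the genes named from pathway lists, the GC example Atp5l, and the tests of heart against liver and of the heart change at E11 against E10 were chosen after values were seen, as were the alternatives of like pixel depth and of added nuclear copies. The members, marker and pathway lists and tests were chosen with earlier results of these data known.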

Additional observations from a re-analysis of the deposited data

Results flagged for a closer look

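The change in heart pixels differed between E11 and E10 for 19 members by the interaction term of edgeR's quasi-likelihood test, with adjusted p from 0.0011 to 0.047 and 7 libraries. In each the log2 change was higher at E11. Differences in log2 change were 2.19 for Cox6a2, 1.86 for Cox7a1, 1.16 for Ndufa1, 1.03 for Ndufc2, 0.95 for Ndufs7, 0.91 for Cox7b and 0.88 for mt-Co2. They were 0.82 for Uqcr10, 0.81 for mt-Co1, 0.80 for Atp5h, 0.79 for mt-Nd1, 0.77 for mt-Atp6 and 0.76 for Atp5o. They were 0.73 for Uqcr11 and mt-Nd4, 0.72 for Atp5b, 0.71 for mt-Cytb and Atp5a1 and 0.66 for mt-Co3. Leaving out 1 library gave 0.95 to 2.56 for Cox6a2 and 1.00 to 2.16 for Cox7a1, both lowest without E10 10 µm replicate 1. The heart muscle list took 74.2 to 274 of 10000 counts in E10 heart pixels and 227 to 354 at E11, and its part in these differences was not tested.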

How the results depend on the processing

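Counts of called members moved by over 1.5 times as follows. Unless a count of genes is printed beside them, the shares of all genes called in these runs, here and above, are not given. Moved counts are therefore not read as particular to the members. The mean stage change (6 members) gave 13 with DESeq2 and 14 with no filter on low counts. The stage change at 10 µm (0) gave 3 with DESeq2 and 7 with no filter, at 25 µm (0) 7 and 7, and the difference between them (0) gave 1 with no filter. Without library as a replicate block, heart (82) gave 7, liver (35) 0 and neural (2) 0; neural gave 1 with no filter, 7 with thresholds halved and 8 with thresholds doubled. Leaving out 1 library gave 0 to 13 for the mean stage change, 0 to 1 at 10 µm and at 25 µm, 69 to 82 in heart, 9 to 39 in liver, 1 to 9 in neural, 53 to 71 for heart against liver and 4 to 18 for the heart change at E11 against E10. With mt- genes left out, heart gave 67 of its nuclear members. A replicate block on the E11 replicate numbers, which only share a number (r = 0.0565 between deviations), gave 234 genes and no member for 10 µm against 25 µm, beside 403 genes in the same 4 libraries without it. No called count or called gene changed direction under the alternatives run for it. The ratio in heart against other pixels ran from −0.03 to 0.03 when 1 library was left out. The ratios moved by less than the spread between libraries, other than group means with the nuclear copies added (1.26, 0.23, 0.57 and 0.72 at E10 50, 25 and 10 µm and at E12). The cause of the moves was not tested.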
